A study of Mus musculus with 12 samples.

Results

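The leukemia inhibitory factor (LIF) pathway was followed through 10 genes in mouse embryonic stem cells, from the receptor to its targets. They are the receptor chains Lifr and Il6st, the kinase Jak1, the transcription factor Stat3, the feedback inhibitors Socs1, Socs2 and Socs3, and the STAT3-responsive genes Pim1, Pim3 and Bcl3. They were chosen by gene symbol, and each matched a single row among the 54555 genes of the deposited table. RNA sequencing libraries of R1 cells, an established mouse embryonic stem cell (mESC) line, fell into 4 groups of 3. RA_OGTi cells were pre-treated with Ac45SGlcNAc (25 µM, 48 h), an inhibitor of O-GlcNAc transferase (OGT), and then kept for 48 h in 1 µM retinoic acid (RA). RA_control cells had the vehicle DMSO before the same RA step. Both RA groups were replated 24 h before RA, and their RA medium lacked LIF. mESC_OGTi cells were undifferentiated cells given the same inhibitor dose for 48 h, and mESC_control cells were undifferentiated cells labelled normal, with no vehicle stated. Undifferentiated cells were maintained on gelatin in serum medium with 1000 U/mL of LIF. R1 is a single line, and the labels do not say whether the inhibitor stayed in the RA medium. The added RA, the missing LIF and the replating cannot be told apart in any comparison of RA-treated cells with mESCs. Without inhibitor the DMSO vehicle is mixed in too, since none is stated for mESC_control. In mESC_OGTi against mESC_control the inhibitor and any vehicle cannot be told apart.

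LIF binds a receptor made of the LIFR chain and gp130, the product of Il6st, which is shared by the interleukin-6 cytokine family. The bound JAK kinases phosphorylate STAT3, which enters the nucleus and switches on target genes. In mouse embryonic stem cells this signal sustains self-renewal. SOCS3, itself made from a STAT3 target gene, binds gp130 and JAK and shuts the signal down, so the Socs3 transcript is widely used as a readout of STAT3 activity. OGT is the enzyme that adds a single sugar, O-GlcNAc, to proteins inside the cell.

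The libraries held 15553627 to 17833464 fragments assigned to genes. Pluripotency markers were present in all groups at a lower level after RA. The summed FPKM of 7 markers, Pou5f1 among them, was 2003 to 2236 in RA_OGTi and 2474 to 3079 in RA_control. In mESC_OGTi it was 5514 to 5947 and in mESC_control 5879 to 5938. Most of each sum came from Dppa5a (mean 1850, 2436, 3397 and 3435 FPKM in the same order), and the other markers fell by larger factors with RA. Summed over 8 markers of extraembryonic endoderm, levels were 19.8 to 21.3 FPKM in RA_OGTi, 16.7 to 19.1 in RA_control, 6.27 to 7.16 in mESC_OGTi and 5.95 to 6.39 in mESC_control, and Ttr was at 0 in both mESC groups. Fibroblast or feeder markers (7 genes) summed to 29.6 to 31.1 FPKM in RA_OGTi, 28.1 to 30.6 in RA_control, 15.6 to 17.95 in mESC_OGTi and 16.8 to 17.98 in mESC_control. Of these, Col3a1 and Postn were near 0 in every group (highest libraries 0.0109 and 0.0737 FPKM, both in RA_OGTi). Thy1 had lower means after RA, at 6.69, 7.61, 9.33 and 9.96 FPKM in the same order. Pdgfrb, Fbln2, Col1a1 and Col1a2 had higher means after RA with and without inhibitor. Trophoblast markers (7 genes) summed to 18.3 to 20.7, 15.8 to 18.7, 35.9 to 40.4 and 29.4 to 34.1 FPKM in RA_OGTi, RA_control, mESC_OGTi and mESC_control. Most of each sum came from Tfap2c (mean 11.6, 10.4, 33.1 and 25.7 FPKM in the same order). Cdx2 and Krt7 had higher means after RA with and without inhibitor, Eomes had lower ones, and Hand1 was mixed. Elf5 and Gcm1 also had higher means after RA, but no library reached 1 FPKM (highest 0.0638 and 0.672). For both, the RA_control and mESC_control libraries overlapped. Blood markers (6 genes) summed to 14.5 to 15.5, 10.3 to 11.5, 37.8 to 42.1 and 29.3 to 32.3 FPKM in the same order, most of it from Cd68, and Ptprc was at 0 in RA-treated cells. The mitochondrial share of fragments was 0.617% to 0.701% in RA_OGTi, 0.723% to 0.828% in RA_control, 0.614% to 0.741% in mESC_OGTi and 0.795% to 0.845% in mESC_control. These marker levels and shares move with the groups, and their part in the results below was not tested. Of the O-GlcNAc enzyme transcripts, Mgea5, the deposited symbol for O-GlcNAcase, averaged 8.26 ± 1.15 FPKM in RA_OGTi against 46.1 ± 2.49 in RA_control, and 9.46 ± 0.327 in mESC_OGTi against 37.2 ± 1.05 in mESC_control (SD, n = 3 each). Ogt averaged 26.4 ± 1.94 FPKM in RA_OGTi against 23.2 ± 3.14 in RA_control, which did not pass (adjusted p = 0.167), and 40.8 ± 0.753 in mESC_OGTi against 18.1 ± 1.92 in mESC_control (SD, n = 3 each).

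Levels are FPKM (fragments scaled to gene length and to a factor per library), which are comparable between genes of unlike length. In undifferentiated control cells Pim3 and Socs3 were highest, at 164 ± 5.25 and 152 ± 4.73 FPKM (SD, n = 3), and the ranges of their 3 libraries did not overlap. Pim1 followed at 51.7 ± 5.06 and Bcl3 at 36.6 ± 2.38 FPKM. Stat3 stood at 20.05 ± 0.641 FPKM, Jak1 at 11.7 ± 0.344, Il6st at 11.1 ± 0.509 and Lifr at 7.23 ± 0.367 FPKM, with Jak1 and Il6st libraries overlapping. Socs2 and Socs1 were lowest, at 4.75 ± 0.389 and 3.94 ± 0.155 FPKM. All 10 genes passed the filter of 1 FPKM in at least 3 libraries. The smallest number of fragments behind any of these values was 130, for Socs1 in an mESC_OGTi library, and 144 for Socs2 in an RA_OGTi library.

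**Figure D1:**
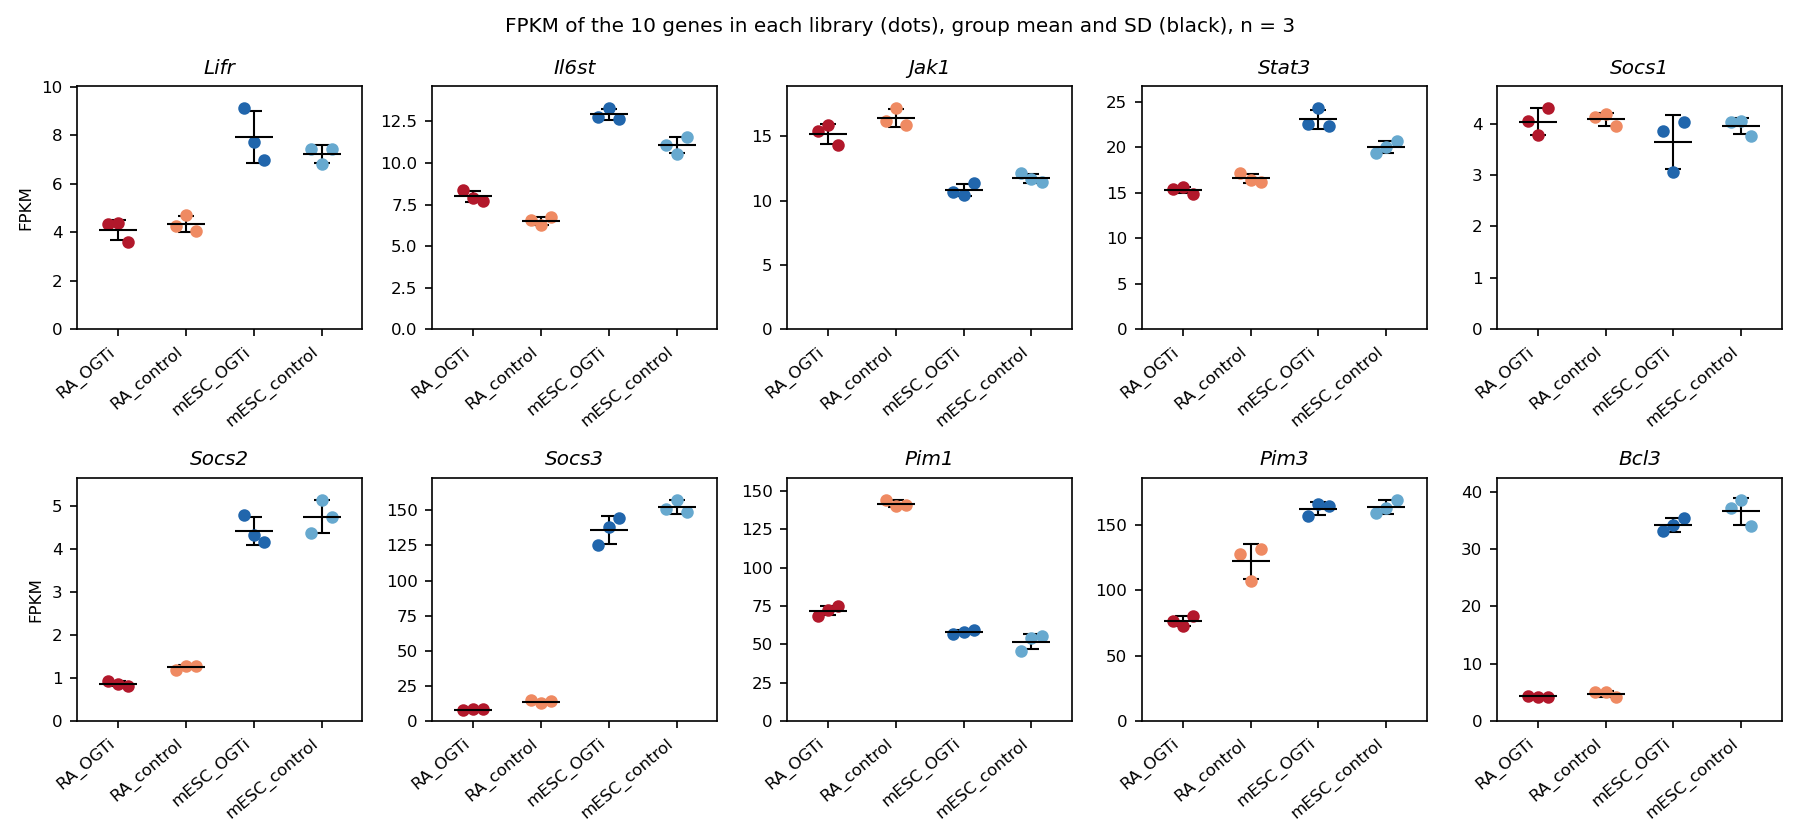
FPKM of the 10 genes (linear axis from 0) in each library, with dots for the 3 libraries of a group and black lines for the group mean and SD, in RA_OGTi, RA_control, mESC_OGTi and mESC_control. Socs3, Socs2 and Bcl3 are low in all 6 RA-treated libraries, Pim1 is highest in RA_control, and Socs1 lies between 3.05 and 4.30 FPKM everywhere.

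RA-treated cells had less receptor transcript. Without inhibitor, 2 of the 10 genes rose and 7 fell in RA_control against mESC_control, by limma on log2(FPKM + 1). A gene counts as called where its p, adjusted by Benjamini-Hochberg across the 14866 genes tested, is under 0.05. With that rule 70.9% of all tested genes were called, 33.7% higher and 37.2% lower, so a change with RA was the common outcome. The libraries of 9 of the 10 genes did not overlap between these groups, 2 higher and 7 lower, as for 73.2% of all tested genes (34.8% higher and 38.5% lower). The median log2 fold change was -0.52 over the 10 genes and -0.03 over all tested genes. Scaling each library to TPM moved the median of all genes to 0.18 and the share of higher calls to 63.65%, against 47.53%, so a small change with RA rests on the scaling. With TPM 3 of the 10 genes were called higher and 6 lower. In bulk libraries, fewer cells expressing a gene and less transcript per cell cannot be told apart.

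Lifr (ENSMUSG00000054263, chromosome 15, 7090614 to 7197489, GRCm38) encodes the ligand-specific chain. Its level was 4.33, 4.37 and 3.63 FPKM in RA_OGTi, 4.27, 4.72 and 4.08 in RA_control, 9.13, 7.71 and 7.001 in mESC_OGTi, and 7.46, 6.81 and 7.42 in mESC_control. Every RA-treated library lay below every mESC library, and within each state the inhibitor and control libraries overlapped. Without inhibitor the log2 fold change with RA was -0.62 (SE 0.091, adjusted p = 7.47e-05). Il6st, the gp130 gene (ENSMUSG00000021756, chromosome 13, 112464070 to 112510086), stood at 8.35, 7.89 and 7.74 FPKM in RA_OGTi, 6.60, 6.28 and 6.75 in RA_control, 12.8, 13.3 and 12.7 in mESC_OGTi, and 11.1, 10.6 and 11.6 in mESC_control. Here all 4 groups were separate, with the inhibitor libraries above the controls in each state. Il6st fell with RA by 0.68 on the log2 scale (SE 0.050, adjusted p = 2.12e-07), to 59.0% of the mESC_control mean.

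Jak1, the kinase bound to gp130 (ENSMUSG00000028530, chromosome 4, 101152367 to 101265282), went the other way. Its libraries held 15.4, 15.9 and 14.3 FPKM in RA_OGTi, 16.1, 17.2 and 15.9 in RA_control, 10.7, 10.4 and 11.4 in mESC_OGTi, and 12.1, 11.7 and 11.4 in mESC_control. RA-treated libraries were all above mESC libraries, with the inhibitor libraries just below the controls in each state. Jak1 rose with RA by a log2 fold change of 0.45 (SE 0.053, adjusted p = 1.15e-05), or 0.70 with TPM scaling. The Jak1 locus overlaps Raver2 on the opposite strand (mean 8.76 FPKM), and the sources used here do not give the strand setting of the counting, so shared reads cannot be separated.

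Stat3 (ENSMUSG00000004040, chromosome 11, 100885098 to 100939540), the factor that carries the signal to the nucleus, had 15.4, 15.6 and 14.9 FPKM in RA_OGTi, 17.2, 16.5 and 16.2 in RA_control, 22.6, 24.3 and 22.3 in mESC_OGTi, and 19.4, 20.1 and 20.7 in mESC_control. The 4 groups did not overlap, with mESC_OGTi at the top and RA_OGTi at the bottom. Without inhibitor Stat3 fell with RA by 0.26 on the log2 scale (SE 0.046, adjusted p = 0.000371), to 83.0% of the mESC_control mean. This call was lost with TPM scaling (log2 fold change -0.03, adjusted p = 0.691), and its adjusted p ran from 0.000126 to 0.691 over the alternatives. Stat5a overlaps the Stat3 locus on the opposite strand, at a mean of 2.25 FPKM.

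The SOCS genes, which encode feedback inhibitors, behaved unlike one another. Socs3 (ENSMUSG00000053113, chromosome 11, 117966079 to 117970047) was at 7.44, 8.18 and 8.19 FPKM in RA_OGTi, 14.6, 12.8 and 13.9 in RA_control, 125, 138 and 145 in mESC_OGTi, and 151, 158 and 149 in mESC_control. The states were far apart, and within RA-treated cells the inhibitor libraries were all below the controls. Mean Socs3 in RA_control was 11.1-fold lower than in mESC_control (log2 fold change -3.38 on the FPKM + 1 scale, SE 0.064, adjusted p = 8.96e-12), and mean Socs3 in RA_OGTi was 17.1-fold lower than in mESC_OGTi (log2 fold change -3.94, SE 0.064, adjusted p = 1.89e-12). It was the largest log2 change with RA among the 10 genes in both comparisons.

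Socs2 (ENSMUSG00000020027, chromosome 10, 95385362 to 95417180), best known for limiting growth hormone signalling, read 0.922, 0.858 and 0.808 FPKM in RA_OGTi, 1.19, 1.27 and 1.28 in RA_control, 4.79, 4.32 and 4.16 in mESC_OGTi, and 4.37, 5.15 and 4.73 in mESC_control. The mESC groups overlapped, RA_control lay below both, and RA_OGTi lay below RA_control. The Socs2 mean in RA_control was 3.81-fold lower than its mESC_control mean (log2 fold change -1.35 on the FPKM + 1 scale, SE 0.071, adjusted p = 1.37e-08). Socs1 (ENSMUSG00000038037, chromosome 16, 10782240 to 10785536), which inhibits JAK kinases and is best known from interferon signalling, was at 4.05, 3.77 and 4.30 FPKM in RA_OGTi, 4.14, 4.18 and 3.95 in RA_control, 3.86, 3.05 and 4.03 in mESC_OGTi, and 4.02, 4.05 and 3.77 in mESC_control. All 4 Socs1 groups overlapped. The log2 fold change of Socs1 with RA was 0.04 (95% interval -0.13 to 0.22, adjusted p = 0.662), and with TPM scaling it was 0.27 and passed (adjusted p = 0.0294).

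Promoter windows of Socs3 and Socs1 are shown because these feedback inhibitors differed most in their change with RA. Each runs from 250 bases before to 50 bases after a RefSeq start site (GRCm38.p6), read 5′ to 3′ on the minus strand, with the STAT-type match in capitals. The Socs3 window is chr11:117969317-117969616 and the Socs1 window is chr16:10785487-10785786.
Socs3: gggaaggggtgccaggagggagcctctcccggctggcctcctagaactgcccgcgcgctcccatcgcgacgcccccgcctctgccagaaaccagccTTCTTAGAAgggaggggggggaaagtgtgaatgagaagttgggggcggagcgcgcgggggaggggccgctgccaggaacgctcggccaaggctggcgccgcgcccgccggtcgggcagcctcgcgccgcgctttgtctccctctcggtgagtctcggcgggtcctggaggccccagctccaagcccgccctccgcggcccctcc
Socs1: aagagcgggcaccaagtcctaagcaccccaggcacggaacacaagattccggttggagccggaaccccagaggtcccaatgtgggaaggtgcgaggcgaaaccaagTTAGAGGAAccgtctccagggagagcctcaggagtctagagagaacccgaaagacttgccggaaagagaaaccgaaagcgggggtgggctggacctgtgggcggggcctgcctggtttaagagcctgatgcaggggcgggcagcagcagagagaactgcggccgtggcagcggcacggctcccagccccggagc
The palindrome TTCNNNGAA, the core of STAT-binding elements, occurred in the Socs3 window 154 bases before the start as TTCTTAGAA, and in 8.3% of 32851 RefSeq windows of the same length. Of the 11 windows that 9 of the 10 genes have (Socs2 had no entry), 1 held it. The variant TTANNNGAA, searched on both strands, was in the windows of Socs1 (TTAGAGGAA), Stat3 and Il6st and in 10.4% of all windows. The narrower forms TTCCNGGAA and TTCCNNGAA, both contained in TTCNNNGAA and the first also in the second, were in 1.15% and 4.81% of all windows and in none of the 11. The Socs3 start used by RefSeq lies 681 bases inside the deposited gene, so these letters cover an internal start of the deposited model. The Lifr starts (38958 and 49928 bases) and a Pim1 start (2273 bases) lie further inside, so those windows do not cover the deposited 5′ end. A match is a sequence description only.

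The kinase genes Pim1 and Pim3, whose products promote survival and growth, parted with RA. Pim1 (ENSMUSG00000024014, chromosome 17, 29490812 to 29496111) was at 68.7, 72.3 and 74.7 FPKM in RA_OGTi, 144, 140.1 and 141 in RA_control, 57.0, 58.1 and 59.2 in mESC_OGTi, and 45.9, 54.0 and 55.2 in mESC_control. RA_control stood above every other group. Its mean was 2.74 times that of mESC_control (log2 fold change 1.44, SE 0.063, adjusted p = 3.40e-09). Pim3 (ENSMUSG00000035828, chromosome 15, 88862186 to 88865726) was at 76.8, 72.4 and 80.5 FPKM in RA_OGTi, 128, 107 and 131 in RA_control, 157, 166 and 165 in mESC_OGTi, and 159, 163 and 169 in mESC_control. RA_OGTi lay below RA_control, RA_control lay below both mESC groups, and the mESC groups overlapped. Pim3 fell with RA by 0.43 on the log2 scale without inhibitor (SE 0.073, adjusted p = 0.000249), and by 0.19 with TPM scaling.

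Bcl3 (ENSMUSG00000053175, chromosome 7, 19808462 to 19822770), a nuclear cofactor of NF-kB p50 and p52, was at 4.41, 4.21 and 4.15 FPKM in RA_OGTi, 5.03, 5.04 and 4.11 in RA_control, 33.1, 34.1 and 35.5 in mESC_OGTi, and 37.2, 38.6 and 34.0 in mESC_control. The states did not overlap, and the inhibitor and control libraries overlapped within each state. Its RA_control mean was 7.75-fold lower than its mESC_control mean (log2 fold change -2.72, SE 0.070, adjusted p = 8.16e-11). The limit named for Jak1, an unstated strand setting, applies here too, since the antisense gene Gm16174 (highest library 2.23 FPKM) overlaps Bcl3.

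In inhibitor-treated cells the RA comparison again gave 2 genes higher and 7 lower, where 68.7% of all tested genes were called (32.0% higher and 36.7% lower). Again 9 genes had groups without overlap, 7 of them lower, as for 71.9% of all tested genes (38.2% lower). The median log2 fold change was -0.72 over the 10 genes and -0.04 over all tested genes. With TPM scaling 3 genes were higher and 7 lower, and the share of higher calls among all genes was 66.21% against 46.61%. Jak1 and Pim1 rose (log2 fold changes 0.45 and 0.30, adjusted p = 1.18e-05 and 0.00116), and with TPM scaling these values were 0.74 and 0.58. Lifr, Il6st, Stat3, Socs2, Pim3 and Bcl3 fell beside Socs3, with log2 fold changes of -0.80, -0.63, -0.56, -1.54, -1.08 and -2.74. TPM scaling gave -0.40 for Il6st and -0.31 for Stat3, and limma-voom on recovered fragments, which adds no FPKM pseudocount, gave -2.35 for Socs2. Socs1 did not pass (log2 fold change 0.12, 95% interval -0.05 to 0.30), except with TPM scaling (0.39, adjusted p = 0.00373).

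**Figure D2:**
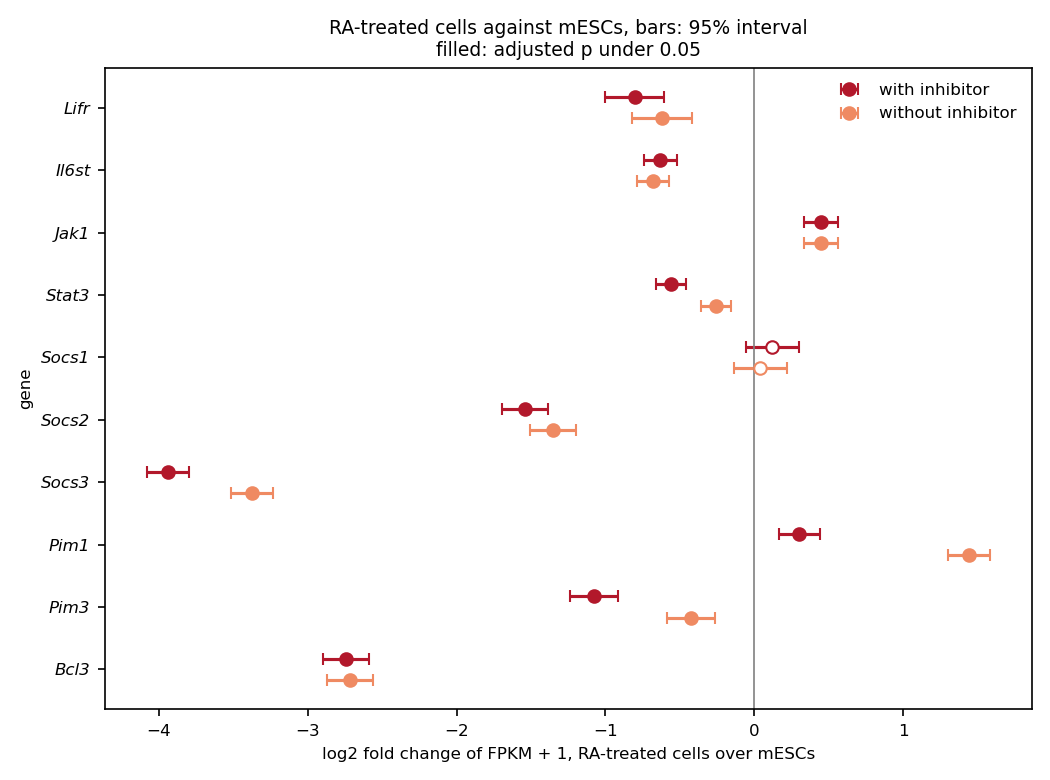
Log2 fold change of FPKM + 1 (horizontal axis) of RA-treated cells over mESCs for each gene, with inhibitor (dark) above without inhibitor (light), and 95% intervals as bars. Filled points passed an adjusted p of 0.05. Socs3 reaches -3.94 with and -3.38 without inhibitor, Jak1 and Pim1 lie right of 0, and Socs1 crosses 0.

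After pre-treatment with the OGT inhibitor, RA-treated cells had less transcript of both PIM kinases and of 2 of the 3 SOCS genes. In RA_OGTi against RA_control, 4 of the 10 genes fell, Socs2, Socs3, Pim1 and Pim3, and 1 rose, Il6st, where 31.9% of all tested genes were called (14.3% lower and 17.6% higher). The median log2 fold change was -0.12 over the 10 genes and 0.00 over all tested genes. Among all called genes 55.26% were higher, and 66.81% with TPM scaling, under which the split of the 10 genes was also 4 lower and 1 higher. Pim1 in RA_OGTi was 50.7% of its RA_control mean (log2 fold change -0.97, SE 0.063, 95% interval -1.11 to -0.83, adjusted p = 3.57e-06). Socs3 was 57.6% of its RA_control mean (log2 fold change -0.72, SE 0.064, adjusted p = 2.49e-05), and Pim3 62.7% (log2 fold change -0.66, SE 0.073, adjusted p = 9.43e-05). For each of these 3 genes all RA_OGTi libraries lay below all RA_control libraries. The same held for Jak1, Stat3 and Socs2, which makes 6 of 10 genes lower and, with Il6st, 7 without overlap, against 20.5% and 44.1% of all tested genes.

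Socs2 was lower in RA_OGTi than in RA_control (log2 fold change -0.27 on the FPKM + 1 scale, SE 0.071, adjusted p = 0.0134). Near 1 FPKM the pseudocount pulls this value in: with a pseudocount of 0.1 it was -0.49 and with limma-voom -0.53. The Socs2 call was lost when only these groups were fitted (adjusted p = 0.0616), and its adjusted p ran from 0.00281 to 0.0616 over the alternatives. Il6st rose by a log2 fold change of 0.25 (SE 0.050, adjusted p = 0.00282), to 122% of the RA_control mean. Lifr, Jak1, Stat3, Socs1 and Bcl3 did not pass, with log2 fold changes of -0.07, -0.11, -0.11, -0.01 and -0.12 and 95% intervals of -0.27 to 0.13, -0.22 to 0.01, -0.21 to -0.01, -0.19 to 0.16 and -0.27 to 0.04. Bcl3 did pass without RA_control replicate 3 (log2 fold change -0.20, adjusted p = 0.0311), and its adjusted p ran from 0.0311 to 0.5 over the alternatives. The summed pluripotency markers and the mitochondrial share were also lower in RA_OGTi than in RA_control, by the ranges given above.

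**Figure D3:**
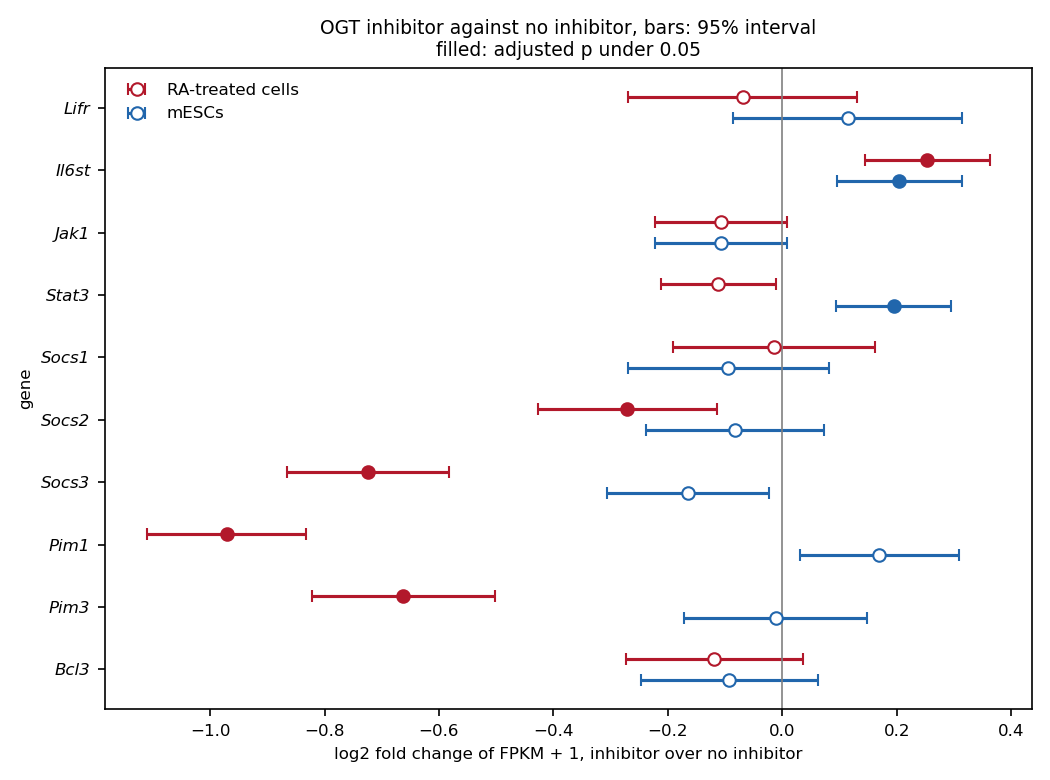
Log2 fold change of FPKM + 1 (horizontal axis) of inhibitor-treated over control cells for each gene, in RA-treated cells (red) above mESCs (blue), with 95% intervals as bars. Filled points passed an adjusted p of 0.05. Pim1, Socs3 and Pim3 lie at -0.97, -0.72 and -0.66 in RA-treated cells, against 0.17, -0.16 and -0.01 in mESCs.

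In undifferentiated cells, where LIF was present, inhibitor-treated and control cells differed little in these genes. The inhibitor and any vehicle cannot be told apart here. In mESC_OGTi against mESC_control 2 of the 10 genes rose, Il6st and Stat3, where 7.78% of all tested genes were called (4.6% higher and 3.18% lower). The median log2 fold change was -0.05 over the 10 genes and 0.01 over all tested genes. Il6st was 117% and Stat3 115% of the mESC_control mean (log2 fold changes 0.20 and 0.19, SE 0.050 and 0.046, adjusted p = 0.0314 and 0.0281). Both calls depend on single libraries. Il6st lost it when only these groups were fitted (adjusted p = 0.073), without mESC_OGTi replicate 1, 2 or 3 (0.0634, 0.118 and 0.0638) and without mESC_control replicate 1 or 2 (0.0828 and 0.112), with a range of 0.0168 to 0.118 over the alternatives. Stat3 lost it with TPM scaling (0.0677), when only these groups were fitted (0.0751), without mESC_OGTi replicate 2 (0.114) and without mESC_control replicate 1 or 2 (0.0987 and 0.0805), with a range of 0.0196 to 0.114.

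The other 8 genes did not pass in mESCs. Socs3 was at 89.3% of the mESC_control mean, with all 3 inhibitor libraries below all 3 controls (log2 fold change -0.16, 95% interval -0.31 to -0.02, adjusted p = 0.147). Pim1 was at 112%, also without overlap (log2 fold change 0.17, 95% interval 0.03 to 0.31, adjusted p = 0.13). With Jak1 (lower), Il6st and Stat3, 5 of the 10 genes had groups without overlap, as did 29.8% of all tested genes. The log2 fold changes of Lifr, Jak1, Socs1, Socs2, Pim3 and Bcl3 were 0.11, -0.11, -0.09, -0.08, -0.01 and -0.09.

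The inhibitor's effect differed between the states for 4 of the 10 genes, all more negative in RA-treated cells than in mESCs. More than the state differs here. RA_OGTi had the inhibitor before 48 h of RA, and its control had DMSO. mESC_OGTi had no such later step, and its control had no stated vehicle. The state, the timing of the inhibitor and the vehicle cannot be told apart. Of all tested genes 7.69% were called for this difference, 3.79% with a negative and 3.9% with a positive value. The median difference was -0.19 over the 10 genes and 0.00 over all tested genes. For Pim1 the difference of log2 fold changes was -1.14 (SE 0.089, adjusted p = 0.000102), for Pim3 -0.65 (SE 0.10, adjusted p = 0.0047), for Socs3 -0.56 (SE 0.091, adjusted p = 0.00549) and for Stat3 -0.31 (SE 0.065, adjusted p = 0.0184). Read the other way, this is also the difference between the RA responses with and without inhibitor: the RA rise of Pim1 was 1.24-fold with inhibitor and 2.74-fold without. Stat3 lost its call with TPM scaling (adjusted p = 0.0765), where 61.43% of all called differences were positive, against 50.74%. Its adjusted p ran from 0.0108 to 0.0765 over the alternatives. The differences for Lifr, Il6st, Jak1, Socs1, Socs2 and Bcl3 were -0.18, 0.05, 0.00, 0.08, -0.19 and -0.03, none past the threshold.

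Around the receptor, most relatives were barely expressed. Of 10 ligands of the interleukin-6 family 3 passed the filter and 7 did not, Lif itself among them at 0.824 ± 0.252 FPKM in RA_OGTi, 0.629 ± 0.0874 in RA_control, 0.835 ± 0.113 in mESC_OGTi and 0.82 ± 0.163 in mESC_control (SD, n = 3 each). Of 10 other receptor genes 4 passed the filter, of which 2 rose and 2 fell with RA in either condition. Of all tested genes 68.7% were called with RA with inhibitor and 70.9% without. Cntfr, a ligand-binding chain that works with Lifr and gp130, rose by log2 fold changes of 1.099 with and 0.85 without inhibitor. Il11ra1, the binding chain for interleukin-11, rose by 0.95 and 1.05.

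The other JAK kinases all changed with RA, Jak2 upward and Jak3 and Tyk2 downward, where 68.7% of all tested genes were called with inhibitor and 70.9% without. Jak2 averaged 5.44 ± 0.783 FPKM in RA_OGTi, 6.89 ± 0.457 in RA_control, 2.05 ± 0.158 in mESC_OGTi and 2.64 ± 0.166 in mESC_control (SD, n = 3 each). Jak3, known from lymphoid cytokine receptors, averaged 2.97 ± 0.352, 8.24 ± 0.617, 11.8 ± 0.7 and 13.1 ± 0.414 FPKM in the same groups, so that the inhibitor lowered it in RA-treated cells by a log2 fold change of -1.22 (adjusted p = 1.91e-06). The inhibitor's effect on Jak3 differed between the states (difference -1.08, adjusted p = 0.000309). In RA-treated cells the inhibitor also lowered Jak2 (-0.30, adjusted p = 0.0236) and raised Tyk2 (0.15, adjusted p = 0.0311). Both calls were lost when only these groups were fitted (adjusted p = 0.0623 and 0.0944), without RA_OGTi replicate 3 (0.0841 and 0.106) and without RA_control replicate 2 (0.0839 and 0.102). Jak2 also lost it with TPM scaling (0.101) and with no filter (0.0509), and Tyk2 without RA_OGTi replicate 1 (0.074).

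Of 6 other STAT genes 5 passed the filter. With RA, in either condition, 1 rose and 2 fell, where 68.7% of all tested genes were called with inhibitor and 70.9% without. Stat5b rose (0.78 with and 0.78 without inhibitor) and Stat6, the interleukin-4 factor, fell (-1.21 and -1.01). The inhibitor lowered Stat6 in RA-treated cells (-0.20, adjusted p = 0.0226), a call lost with TPM scaling (0.0925), when only these groups were fitted (0.0727), without RA_OGTi replicate 3 (0.0865) and without RA_control replicate 3 (0.0806). Of the 5 other SOCS family genes, 2 rose and 1 fell with RA in inhibitor-treated cells, against 1 and 1 without inhibitor. The same shares of all tested genes stand beside these counts. Socs7 was raised by the inhibitor in RA-treated cells, at 13.4 ± 0.85 FPKM in RA_OGTi against 10.6 ± 0.886 in RA_control (SD, n = 3 each, log2 fold change 0.32, adjusted p = 0.00282).

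LIF and STAT3 targets of mouse embryonic stem cells outside the 10 genes fell with RA in most cases. Of 12 listed, 11 passed the filter (not Pramel7), of which 9 fell and 2 rose in RA_control against mESC_control, and 9 fell and 1 rose in RA_OGTi against mESC_OGTi, where 70.9% and 68.7% of all tested genes were called. The median log2 fold changes were -1.35 with inhibitor and -1.40 without. Klf4, a pluripotency factor downstream of STAT3, fell most (-3.35 with and -3.13 without inhibitor), then Sgk1, a growth-factor-induced kinase (-2.53 and -2.36). Tfcp2l1, a main effector of STAT3 in self-renewal, fell by log2 fold changes of -2.05 and -1.55. Vmp1, an autophagy gene, rose in both (0.30 and 0.26, or 0.58 and 0.50 with TPM scaling). Mcl1, a survival gene of the BCL2 family, averaged 185 ± 5.74 FPKM in RA_OGTi and 251 ± 10.2 in RA_control, against 223 ± 11.7 in mESC_OGTi and 227 ± 2.33 in mESC_control (SD, n = 3 each). It rose with RA without inhibitor (0.14, adjusted p = 0.0238) and fell with RA in inhibitor-treated cells (-0.27, adjusted p = 0.000566). The first call was lost without RA_control replicate 1 (0.0967) and without mESC_control replicate 1 or 3 (0.0676 and 0.0503), and the second value turned to 0.0055 with TPM scaling (adjusted p = 0.9).

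The inhibitor lowered 7 of these 11 targets in RA-treated cells and raised none (by limma-voom 8 were called, and 8 had an unadjusted p under 0.05), with a median log2 fold change of -0.28. Of all tested genes 14.3% were called lower and 17.6% higher there. Ier3, an immediate-early survival gene, fell by 0.84 (adjusted p = 0.00116) and Junb, an AP-1 subunit, by 0.54 (adjusted p = 0.000355), while Mcl1 fell by 0.44 (adjusted p = 0.000121). Klf4, Klf5 and Tfcp2l1 did not pass there (-0.10, -0.13 and -0.16), but without RA_OGTi replicate 2 Klf4 and Tfcp2l1 did (-0.20 and -0.21, adjusted p = 0.0117 and 0.0226). Of the 7, Myc and Vmp1 lost their calls without RA_OGTi replicate 1 (adjusted p = 0.0896 and 0.0596) and when only these groups were fitted (0.0785 and 0.0624), Vmp1 also with TPM scaling (0.0942), and Myc also without RA_control replicate 3 (0.0806). In mESC_OGTi against mESC_control, where the inhibitor and any vehicle cannot be told apart, 4 of the 11 were lower and 1 was higher. Their median was -0.19, and 3.18% of all tested genes were called lower and 4.6% higher. There 7 of the 11 were called by limma-voom and 7 had an unadjusted p under 0.05, and Ier3 and Sgk1 passed by limma-voom as lower (adjusted p = 0.0139 and 0.0375). Gbx2, a homeobox target of STAT3, averaged 7.06 ± 0.314 FPKM in mESC_OGTi against 12.7 ± 0.494 in mESC_control (SD, n = 3 each, log2 fold change -0.76, adjusted p = 0.000282). Myc fell by 0.69 (adjusted p = 0.00193), and Tfcp2l1 rose by 0.34 (adjusted p = 0.0106). Vmp1, among the 4 that fell, lost its call without mESC_OGTi replicate 2 or 3 (0.0583 and 0.0521) and without mESC_control replicate 1 (0.0554). The inhibitor's effect differed between the states for Tfcp2l1 (-0.49, adjusted p = 0.0075), Mcl1 (-0.41, adjusted p = 0.0075) and Gbx2 (0.43, adjusted p = 0.0163).

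Genes of the NF-kB family, whose p50 and p52 subunits BCL3 binds, were mostly higher with the inhibitor in RA-treated cells. There 5 of 7 rose, where 17.6% of all tested genes were called higher, with a median log2 fold change of 0.36, and no member fell (by limma-voom 5 were called, and 5 had an unadjusted p under 0.05). Rela, the p65 subunit, averaged 7.17 ± 0.838 FPKM in RA_OGTi against 5.26 ± 0.415 in RA_control, and Relb 8.25 ± 0.608 against 6.19 ± 0.348 (SD, n = 3 each, log2 fold changes 0.38 and 0.36, adjusted p = 0.00526 and 0.00257). Nfkb2, which encodes p52, and the inhibitor gene Nfkbia rose by 0.36 and 0.33. The effect on Relb differed between the states (difference 0.60, adjusted p = 0.00563). In mESCs no member passed by limma, while 2 had an unadjusted p under 0.05 and limma-voom called 1, Nfkb1, which also passed without RA_control replicate 1 (adjusted p = 0.0313). Relb passed as lower there with TPM scaling (-0.25, adjusted p = 0.0288), with a mean of at least 5 FPKM (0.0438) and with a replicate block (0.0477). With RA the family split, with 4 higher and 2 lower in inhibitor-treated cells and 3 higher and 3 lower without inhibitor, where 68.7% and 70.9% of all tested genes were called. The split without inhibitor rests on Nfkbia and Relb: Nfkbia (0.17, adjusted p = 0.0365) lost its higher call in 7 of 21 alternatives, among them those without RA_control replicate 1, 2 or 3 (0.0701, 0.0763 and 0.0667) and without mESC_control replicate 1 or 3 (0.155 and 0.0608). Relb (-0.16, adjusted p = 0.0583) gained a lower call in 6 of 21, among them those without RA_control replicate 3 (0.0387), RA_OGTi replicate 2 (0.0464) and mESC_OGTi replicate 1 or 3 (0.0378 and 0.0497). Nfkb1, which encodes p50, fell in both (-0.76 and -1.05).

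**Figure D4:**
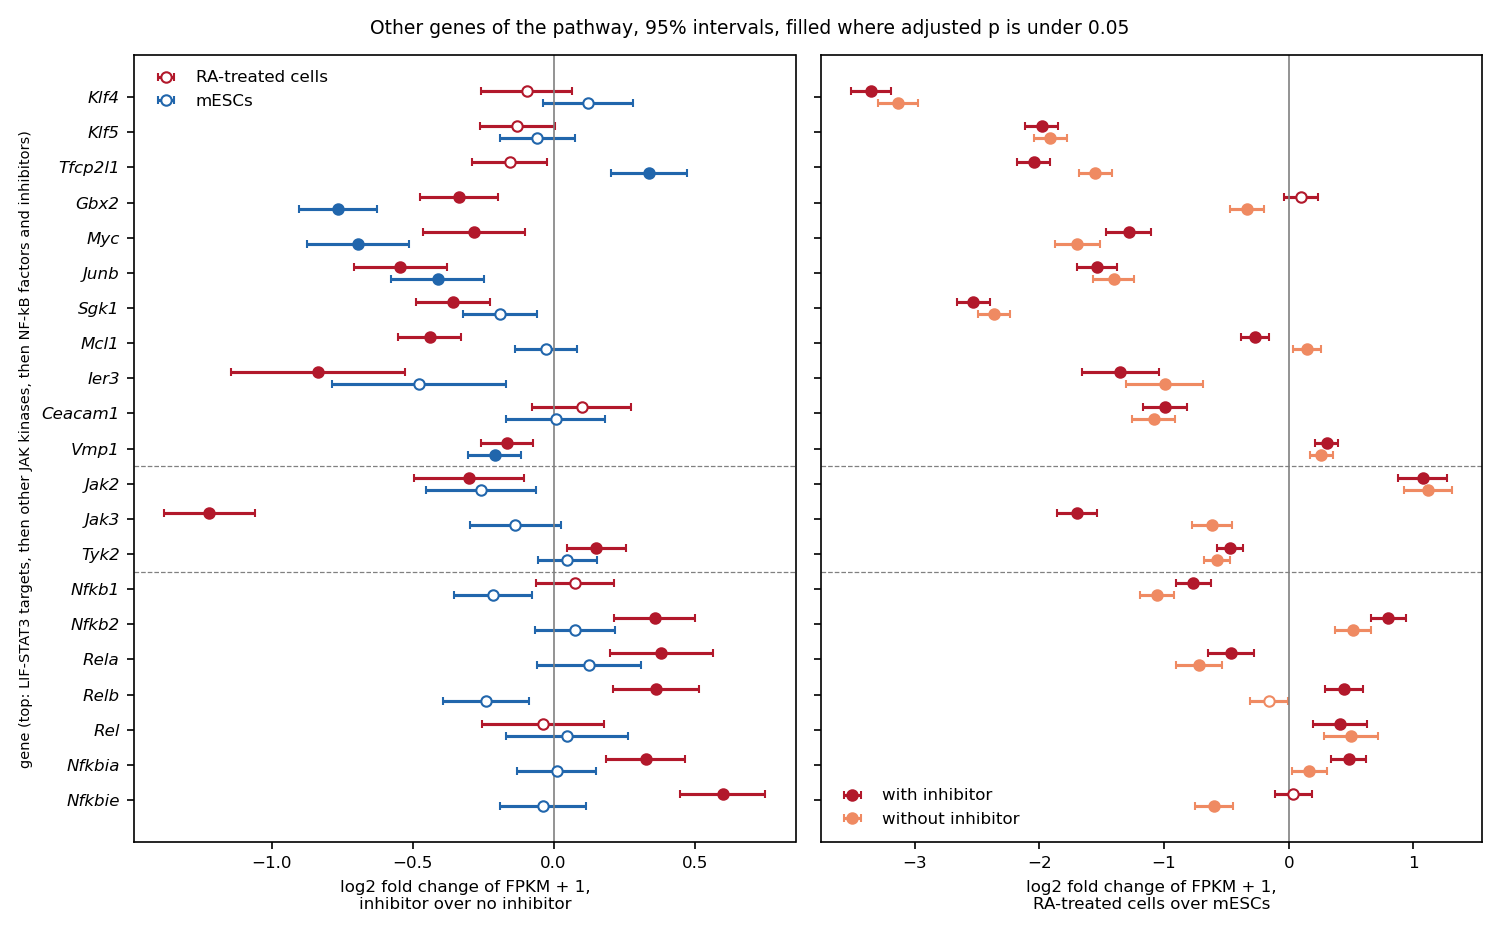
Log2 fold change of FPKM + 1 (horizontal axes) with 95% intervals for LIF and STAT3 targets, the other JAK kinases and NF-kB genes, separated by dashed lines. The left panel shows inhibitor over control in RA-treated cells (red) and mESCs (blue), the right panel RA-treated cells over mESCs with (dark) and without (light) inhibitor, and filled points passed an adjusted p of 0.05. In RA-treated cells Jak3 lies at -1.22 and Ier3 at -0.84, while Relb, Rela and Nfkb2 lie at 0.36 to 0.38.

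Genes with a level pattern like those of 3 members were found by the root mean square (RMS) difference of centred log2(FPKM + 1) over the 12 libraries, among protein-coding genes tested. Nearest to Socs3 were Zfp42, Nanog and Pcolce (RMS difference 0.25, 0.27 and 0.27 log2 units). Nanog averaged 26.0 FPKM in RA_OGTi, 37.1 in RA_control, 293 in mESC_OGTi and 289 in mESC_control. For Stat3 the nearest were Tgif2, Gna13 and Scamp3 (0.053, 0.058 and 0.058), and for Lifr they were Eif3a, Ddx6 and Kansl1 (0.067, 0.076 and 0.078). The likeness is a description of these 12 libraries.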

How the data were processed

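RNA was measured in 12 libraries of mouse R1 cells, 3 in each of 4 groups. TRIzol RNA and an NEBNext Ultra RNA library kit were used, per the labels' protocols. Per the submitters' processing notes, HISAT2 2.0.5 and featureCounts 1.5.0 were used on GRCm38. The authors deposited FPKM per gene, with gene lengths; the sources used here do not give their FPKM formula, filters or strand setting. Multiplying by length recovered whole fragments at 100% of values in each library (tolerance 0.02), with 0.883 to 1.11 fragments per fragment implied by the deposited scale, so that scale is not the plain library total. The replicate numbers have no stated meaning, so p-values measure spread among libraries that may be technical. Replicate pairs differed by more than sampling noise (chi-square per gene 3.74 to 9.96).

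log2(FPKM + 1) was tested with limma 3.58.1 (R 4.3.3, variance trend on), all libraries in 1 fit, for the 14866 genes that reached 1 FPKM in 3 or more libraries. Tests were two-sided, and p was adjusted by Benjamini-Hochberg across these genes, with a threshold of 0.05, in each of 5 comparisons, 1 of them the difference of the inhibitor's effects. Fold changes on this scale understate the change of low genes. The 10 members, 10 other pathway lists, 5 marker lists and tests were chosen with earlier results of these data known. Of each pathway list up to 2 called genes per direction and comparison with a mean of 5 FPKM or more were taken for naming. Beside them the 10 members, Lif, Jak2, Ogt, Mgea5 and Pou5f1 were named. Some named values fall outside this rule and were chosen after their values were seen. These are Ttr, Cd68, Ptprc, Klf5, Pramel7, Dppa5a and the single fibroblast and trophoblast markers. Some results of these lists are not reported here. Promoter windows came from RefSeq (GRCm38.p6), where 9 of the 10 genes matched by symbol. Settings varied 1 at a time were the scaling (TPM or median of ratios), the pseudocount (0.1), the filter (none, or a mean of 5 FPKM), the trend (off), the libraries in the fit (only the compared groups, or 1 library left out), a block for replicate number, and limma-voom on the recovered fragments. The median-of-ratios factor was 1.00987 in all 12 libraries, so the deposited values were already on that scale. That alternative could therefore hardly differ from the main fit. The fit was tested on simulated data. Python 3.11.15 (numpy 2.4.6, pandas 2.3.3, matplotlib 3.10.9) made the tables and figures.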

Additional observations from a re-analysis of the deposited data

Results flagged for a closer look

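The effect of the inhibitor differed between RA-treated cells and mESCs, by a test of the difference itself, for 4 of the 10 genes. The timing of the inhibitor and the vehicle of the controls also differed between the states, and cannot be told apart from them. The difference of log2 fold changes was -1.14 for Pim1, -0.65 for Pim3, -0.56 for Socs3 and -0.31 for Stat3. For Pim1 and Stat3 the values had opposite signs in the states, at -0.97 in RA-treated cells and 0.17 in mESCs for Pim1 and at -0.11 and 0.19 for Stat3. Of these values only those of Pim1 in RA-treated cells and Stat3 in mESCs passed on their own.

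Among other genes of the pathway the same difference was -1.08 for Jak3, -0.49 for Tfcp2l1, 0.43 for Gbx2, -0.41 for Mcl1 and 0.60 for Relb. Of the OGT-linked transcripts, Ogt differed by -0.95 (adjusted p = 0.00292) and Mgea5 by -0.48 (adjusted p = 0.0221). Mgea5 lost this call with TPM scaling (adjusted p = 0.0791), without RA_OGTi replicate 1 (0.0584), without RA_control replicate 1 (0.0519) and without mESC_control replicate 2 (0.0521).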

How the results depend on the processing

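For the inhibitor in mESCs, 2 of the 10 genes were called, against 1 with TPM scaling, 0 when only these groups were fitted (3 had an unadjusted p under 0.05 there, and limma-voom called 2) and 0 to 2 without 1 library. All genes called there numbered 1157, against 512 when only these groups were fitted, 664 with no filter and 357 to 1267 without 1 library (357 without mESC_OGTi replicate 2, 532 without its replicate 3, 492 without mESC_control replicate 1 and 429 without its replicate 2). With a mean of at least 5 FPKM, which tests fewer genes, all genes called numbered 6161, 3145 and 6046 for the RA comparison without inhibitor, RA_OGTi against RA_control, and the RA comparison with inhibitor, against 10534, 4738 and 10209. Calls for the difference of effects numbered 1143, and 626 to 999 without 1 library (626 without RA_OGTi replicate 1, 705 without RA_control replicate 1, 702 without mESC_OGTi replicate 2 and 757 without mESC_control replicate 2). In the other 4 comparisons the count of the 10 genes stayed within 1.5 times the reported one in all alternatives run. With TPM scaling, the RA change of Gab1 (-0.15) became 0.12 with inhibitor and 0.089 without, and that of Mcl1 with inhibitor (-0.27) became 0.0055; under it the all-gene medians were 0.18 and 0.20, against -0.03 and -0.04. Over the 10 genes, 996 of the recomputed values kept direction and side of the threshold, 14 lost a call, 3 gained one and 17 that did not pass changed sign. These include the median-of-ratios alternative, which could hardly differ from the reported fit. They also include alternatives that leave the log2 fold change as it was, so that its direction could not change. Those are the filters, the trend, the replicate block, fitting only the compared groups, and leaving out a library of a group not compared. Same-numbered libraries deviated together only weakly (correlation above 0.1 in 3 of 18 pairs, median 0.030). Pairs of other numbers were above 0.1 in 1 of 36, with a median of -0.020. The replicate number was not used as a pairing. With it as a replicate block 2, 9, 5, 9 and 4 of the 10 genes were called in the 5 comparisons, as without it. About 130 fragments, the lowest here, limit Socs1 and Socs2.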

Other observations

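Other parts of the gp130 pathway changed in mixed directions with RA. Of 9 negative regulators of JAK and STAT, 3 rose and 5 fell with RA in inhibitor-treated cells, against 2 and 5 without inhibitor. Of all tested genes 68.7% and 70.9% were called there. Ptpn6, the SHP-1 phosphatase, averaged 9.89 ± 0.894 FPKM in RA_OGTi and 8.98 ± 0.68 in RA_control, against 20.1 ± 1.9 in mESC_OGTi and 20.8 ± 0.556 in mESC_control (SD, n = 3 each). The STAT inhibitor genes Pias1, Pias2 and Pias3 had log2 fold changes with RA of 0.53, -0.69 and -0.36 with inhibitor, and 0.55, -0.38 and -0.46 without. Under TPM scaling Pias3 lost its call with inhibitor (adjusted p = 0.187) and Pias2 lost its call without (adjusted p = 0.271). Ptpn11, the SHP-2 phosphatase that links gp130 to ERK, was higher with the inhibitor in RA-treated cells (0.18, adjusted p = 0.0159), a call lost when only these groups were fitted (0.0541) and without RA_control replicate 3 (0.0547). In mESCs its log2 fold change was 0.20 (adjusted p = 0.0325), lost in 10 of 21 alternatives, with adjusted p from 0.0214 to 0.117.

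Among 10 interferon-responsive genes, 3 passed the filter. Of these 1 rose and 1 fell with RA in inhibitor-treated cells, and 1 rose and 2 fell without inhibitor. Of all tested genes 68.7% and 70.9% were called in these comparisons. Tap1, a peptide transporter of antigen presentation, rose by log2 fold changes of 0.84 and 0.74. Of 6 adaptors that lead from gp130 to ERK and PI3K, 2 rose and 2 fell with RA in inhibitor-treated cells, and 1 rose and 2 fell without. The same shares of all tested genes stand beside these counts. Shc1, an adaptor to the RAS pathway, had log2 fold changes of -0.39 and -0.56 (-0.12 and -0.33 with TPM scaling).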
